A study of Mus musculus with 15 samples.

Results

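Exc_24 is a cluster of excitatory neurons of the mouse prefrontal cortex, and its members are the cells that carry this cluster name in the deposited table of cells. The name was given to 649 of 35360 retained cells, or of 20377 cells in all excitatory clusters. Of the 649 cells, 470 came from adult mice of the stage the study names postnatal day 60 (P60) and 179 from juvenile mice at postnatal day 21 (P21). They made up 3.25% of the 14443 excitatory cells at P60 and 3.02% of the 5934 at P21, and by P60 cells the cluster ranked 12 of 26. The P60 cells took the name from the authors' clustering, whereas the P21 cells took it from their correlation with the adult clusters, so the members of both ages were not chosen by the same method. The table also classed 643 of the 649 cells as excitatory. The other 6, all from P21, were classed as microglia (4 cells), endothelial (1 cell) and astrocyte (1 cell).

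Excitatory neurons of the cortex release glutamate, and they are sorted by layer and by the place their axons reach. Intratelencephalic (IT) neurons project within the cortex and striatum, extratelencephalic (ET) neurons of layer 5 project to the midbrain, brainstem and spinal cord, corticothalamic (CT) neurons of layer 6 project to the thalamus, and near-projecting (NP) neurons have mostly local axons. Each type keeps its own transcription factors, adhesion molecules and neuropeptides in the adult, and the neurons go on maturing between weaning and adulthood, when synapses are refined and myelin is laid down.

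The series profiled single cells with 10x Chromium droplets from male C57BL/6N mice. The 12 P60 libraries came from mice aged 8 to 10 weeks that self-administered intravenous cocaine or saline and were taken in the maintenance phase, at 48 h of withdrawal or at 15 days of withdrawal, with 2 libraries for each treatment and time. P60 is the study's stage name, since its text has catheters implanted at P60 and tissue taken after self-administration. The 3 P21 libraries came from weaned-age mice without self-administration. For P21, 4 mice were pooled in pairs, so some of the 3 libraries may share animals, and every p between the ages takes the libraries as separate samples. For the adults, cells of 2 animals were pooled in each library, so the animals cannot be told apart. No library held both ages, so age and library preparation cannot be told apart either. By the study's methods the adults, saline included, also had food restriction, lever training with food, catheter surgery and self-administration. Age cannot be told apart from these procedures. The labels name the dissected region as prefrontal cortex, although their tissue field reads NAc. Replicates are separate libraries, and p-values measure the spread between libraries.

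The libraries held 8375172 to 42892922 unique molecular identifiers (UMIs, counted transcripts), and the Exc_24 cells of a library held 120842 to 1502963. An Exc_24 cell had a median of 15017 UMIs and 4170 genes. Its median UMI count was above that of the other excitatory neurons in 11 of 12 P60 libraries and in 3 of 3 P21 libraries. Any pair of libraries shared 0 to 27 cell barcodes. No barcode occurred in more than 1 Exc_24 cell, and 25 Exc_24 cells had a barcode that also occurred in a cell of another library. By the study's methods, likely doublets were dropped by a cut on gene number and by assessing clusters by hand. Cells above that cut are still in the deposited table, since the Exc_24 cells of cocaine 48 h replicate 2 had a median of 4992 genes, and no doublet caller was run here. The P21 libraries held 100, 35 and 44 Exc_24 cells, and the P60 libraries 7 to 99. Levels are given as CPM, the UMIs of a gene scaled to a total of 1000000 over a library's summed Exc_24 cells, without mitochondrial and ribosomal protein genes, and the 1 saline maintenance library with only 7 Exc_24 cells (replicate 1) was left out of the means and gene tests.

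The markers of excitatory neurons were present in Exc_24. All 10 genes of the list were detected, and 9 of 10 were higher than the mean of the other 25 excitatory clusters, with a median log2 ratio of 0.33 against -0.06 over 12561 genes. Levels against other clusters are descriptions without a test throughout, since the clusters were built on the same genes. Snap25, a protein of the vesicle fusion machinery, stood at 6280 ± 508 CPM (SD, n = 11 P60 libraries) against 4346 in the other clusters. Neurod6, a transcription factor of cortical projection neurons, stood at 772 ± 109 CPM against 453. For both genes Exc_24 was the highest of all 26 clusters. Slc17a7, the vesicular glutamate transporter, was at 460 ± 112 CPM against 397, and Camk2a, a calcium-dependent kinase, was the single gene of the list below the others, at 333 ± 37.2 against 393.

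Markers of other brain cells stood near their level in the other excitatory clusters at P60. Astrocyte, oligodendrocyte, microglial, endothelial and inhibitory neuron markers had median log2 ratios of 0.01, -0.12, -0.36, -0.14 and -0.28, and no member at 1 CPM or more lay above or below the other excitatory clusters by 2-fold on the scale of CPM + 1. Of the inhibitory list, Lhx6 and Adarb2 had no UMI in the P60 cells. At P21 the summed oligodendrocyte markers reached 132 to 2871 CPM, against 75.4 to 158 in the P60 saline libraries. The highest P21 value belonged to replicate 2. The summed astrocyte markers stood at 838 to 1081 CPM at P21 and 499 to 776 in P60 saline, the inhibitory at 20.4 to 38.0 and 0 to 19.3, and the endothelial and mural at 22.8 to 168 and 3.87 to 26.6, and their part in the age changes was not tested.

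The layer and projection markers did not place Exc_24 in a single named type. NP markers were low without exception, with all 6 detected genes below the other clusters by over 2-fold and a median log2 ratio of -2.70. Lypd1 stood at 1.13 CPM against 64.8 and Tshz2, a zinc finger factor, at 4.15 against 95.8. The mean of Tshz2 includes Exc_21 at 2099 CPM, and Exc_24 ranked 15 of 26 for it. For Lypd1 the similar Exc_22 and Exc_11 stood at 1.64 and 1.80 CPM. Layer 2/3 IT markers were low in 7 of 9 genes, with Cux2, a homeobox factor of upper layers, at 2.73 CPM against 60.6 (rank 18 of 26, with the similar Exc_22 at 0.431 and Exc_25 at 1.58) and Calb1, the calcium buffer calbindin, at 7.58 against 94.2. CT markers were low in 6 of 9, with Foxp2 at 0.915 CPM against 20.7 and Syt6 at 0.134 against 11.6. Exc_24 ranked 19 of 26 for Foxp2, whose mean includes Exc_18, Exc_19 and Exc_20 at 119 to 172, and the similar Exc_11 and Exc_22 stood at 2.04 and 2.52. ET markers were low in 5 of 8, with Bcl11b (Ctip2), a factor of subcerebrally projecting neurons, at 4.64 CPM against 43.2 and Fezf2 at 13.1 against 46.9.

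Genes above the other clusters by over 2-fold were found in the layer lists of layer 4 and 5 IT (2 genes) and layer 6 IT (1 gene), and in none of the other layer lists. Of 15 layer 4 and 5 IT genes, Pld5 and Cbln4 were above the others by over 2-fold and 7 were below, among them Pcdh19, a protocadherin, at 3.74 CPM against 47.4. Rorb, an orphan nuclear receptor of middle layers, stood at 93.9 ± 30.7 CPM and ranked 7 of 26. Of 8 layer 6 IT genes, Fst (follistatin, which binds activin) stood at 17.9 ± 5.12 CPM against 3.68, the second highest cluster, whereas 4 were low, including Penk, the enkephalin precursor, at 4.94 against 31.4. Among 5 detected genes of the claustrum list, Gnb4 was at 70.9 CPM against 41.5 and Lxn at 74.5 against 50.6, but Synpr was at 52.1 against 251 and Car3 itself had no UMI. Exc_24 is therefore called by its cluster name here.

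**Figure D1:**
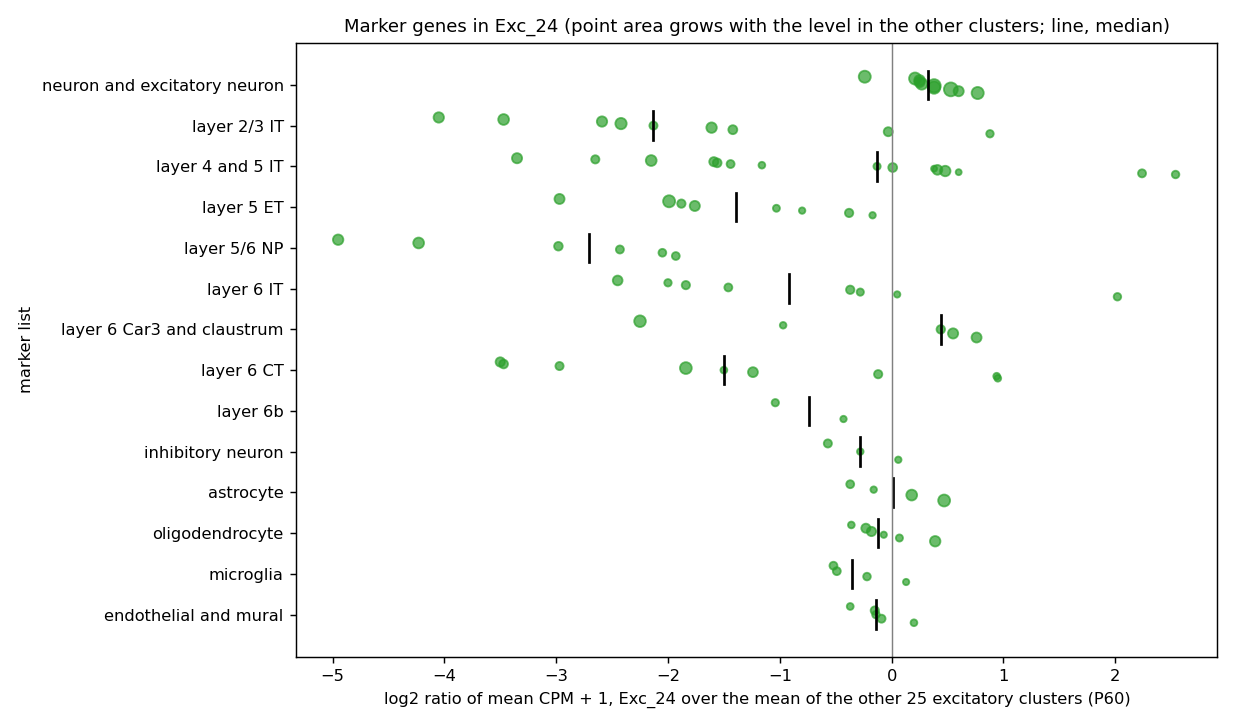
Log2 ratio of mean CPM + 1 in Exc_24 over the mean of the other 25 excitatory clusters at P60 (horizontal axis) for the genes of each marker list (rows, 1 point per gene at 1 CPM or more in either, black line at the list's median). Excitatory neuron genes sit right of 0 in 9 of 10 cases, the 6 NP genes sit below -1, and the genes of other brain cells lie within 1 of 0.

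The gene that set Exc_24 apart most was Lgals1, which encodes galectin-1, a secreted lectin that binds galactosides (chr15:78757155-78760895, plus strand, mm9). Its mean was 60.9 ± 39.7 CPM (SD, n = 11) against 2.15 in the other clusters, a ratio of 28.4, and the next cluster, Exc_14, stood at 11.2. In the libraries of the maintenance phase Lgals1 was at 152 and 25.2 CPM with cocaine and 9.42 with saline. At 48 h it was at 90.3 and 34.1 CPM with cocaine and 82.9 and 42.6 with saline, and at 15 days at 50.4 and 80.8 with cocaine and 64.8 and 37.0 with saline. Every one of these libraries was above the mean of the other clusters, and the treatment groups overlapped at 48 h and 15 days. The 3 most similar clusters, Exc_22, Exc_11 and Exc_25, were at 0.752, 3.53 and 2.34 CPM.

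Lgals1 was found in a part of the Exc_24 cells. At P60, 139 of 470 cells (29.6%, exact 95% binomial interval 25.5 to 33.9) had a UMI of it, 80 cells had 2 or more, and the highest cell had 14. Among the other excitatory neurons the share was 2.70%, and in oligodendrocytes, taken as a measure of free RNA, 1.77%. After each cell was thinned to 2000 UMIs, the shares were 10.2%, 0.630% and 1.01%, with median depths before thinning of 16060, 13539 and 3626 UMIs. Endothelial cells, which also use Lgals1, had a UMI in 32.5% of cells. The summed endothelial and mural markers were 19.8 CPM in Exc_24 and 22.2 in the other clusters. The intervals cover counting error only.

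The 14 genes that followed by ratio had 2.84 to 7.10 times the mean of the other clusters. Pld5, a member of the phospholipase D family (chr1:177892437-178205443, minus strand), stood at 26.7 ± 15.0 CPM against 3.76, below Exc_10 alone at 57.5. Cbln4 and Cbln2 encode cerebellins, secreted proteins that organise synapses. Cbln4 (chr2:171861733-171868966, minus strand) stood at 31.7 ± 14.1 CPM against 5.92 and Cbln2 (chr18:86880502-86887675, plus strand) at 80.9 ± 31.3 against 27.0. Exc_24 ranked 3 of 26 for Cbln4, where Exc_11 was highest at 46.6 CPM, and 2 of 26 for Cbln2, after Exc_21 at 150 CPM. Cadps2, which acts in the release of dense-core vesicles (chr6:23212773-23789421, minus strand), stood at 79.4 ± 18.3 CPM against 23.8. Exc_26 stood at 137 CPM for Cadps2 and the similar Exc_22 at 70.7. The similar Exc_11 stood at 18.3 CPM for Pld5 and 53.6 for Cbln2. For each of these 4 genes at least 1 other cluster stood higher.

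Several of the remaining leading genes stood higher in another cluster. Adssl1, highest in Exc_24, an enzyme of AMP synthesis (chr12:113858258-113879565, plus strand), stood at 25.5 ± 17.9 CPM against 4.26, and Gpx3, a secreted glutathione peroxidase (chr11:54715955-54723879, plus strand), at 64.3 ± 30.6 against 18.6, with Exc_14 at 82.4. The small heat shock proteins Cryab (chr9:50560863-50564738, plus strand) and Hspb3 (chr13:114453104-114453884, minus strand) were at 244 ± 69.7 against 80.0 CPM and 25.8 ± 13.0 against 8.32, with Exc_18 at 276 for Cryab and the similar Exc_11 at 36.9 for Hspb3. Thrsp, a thyroid hormone responsive gene of lipid synthesis, was at 28.4 CPM (5.03 to 50.2 over the libraries) against 9.25, below the similar Exc_22 at 37.5 and Exc_25 at 33.6, and Osbpl3, an oxysterol-binding protein, at 58.4 ± 16.3 against 17.8. For Osbpl3, Exc_10 stood at 42.3 CPM and the similar Exc_11 at 41.3. Zfp804a, a zinc finger gene, was at 34.9 ± 8.19 CPM against 9.75, with a range of 23.9 to 49.8 over the libraries, and Trps1, a GATA-type factor, at 30.6 ± 9.59 against 10.5. For Trps1, Exc_10 stood higher at 32.7 CPM and the similar Exc_11 at 20.9. Amotl1, an angiomotin family protein of cell junctions, was at 23.4 ± 7.08 against 6.46 and Inf2, a formin that shapes actin, at 51.0 ± 15.6 against 18.0, with Exc_18 at 51.2 and Exc_22 at 48.0.

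Few genes were highest in Exc_24 by a wide margin. Of 5836 genes at 20 CPM or more in Exc_24, 104 were above every other cluster and 51 were above 2 times the mean of the others. Only Lgals1 and Amotl1 exceeded the next cluster by over 1.5 times, with ratios of 5.42 and 1.58, and by the number of such genes Exc_24 ranked 15 of 26. Man2a1, a mannosidase of the Golgi, followed with 25.8 CPM and 1.41 times the next cluster. All 15 leading ratios stayed within 1 SD when the saline libraries alone were used. In the P21 libraries 6 of the 15 moved further, with Lgals1 at 4.55 in place of 28.4, Amotl1, Gpx3 and Thrsp also at lower ratios and Cbln4 and Cadps2 at higher ones.

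**Figure D2:**
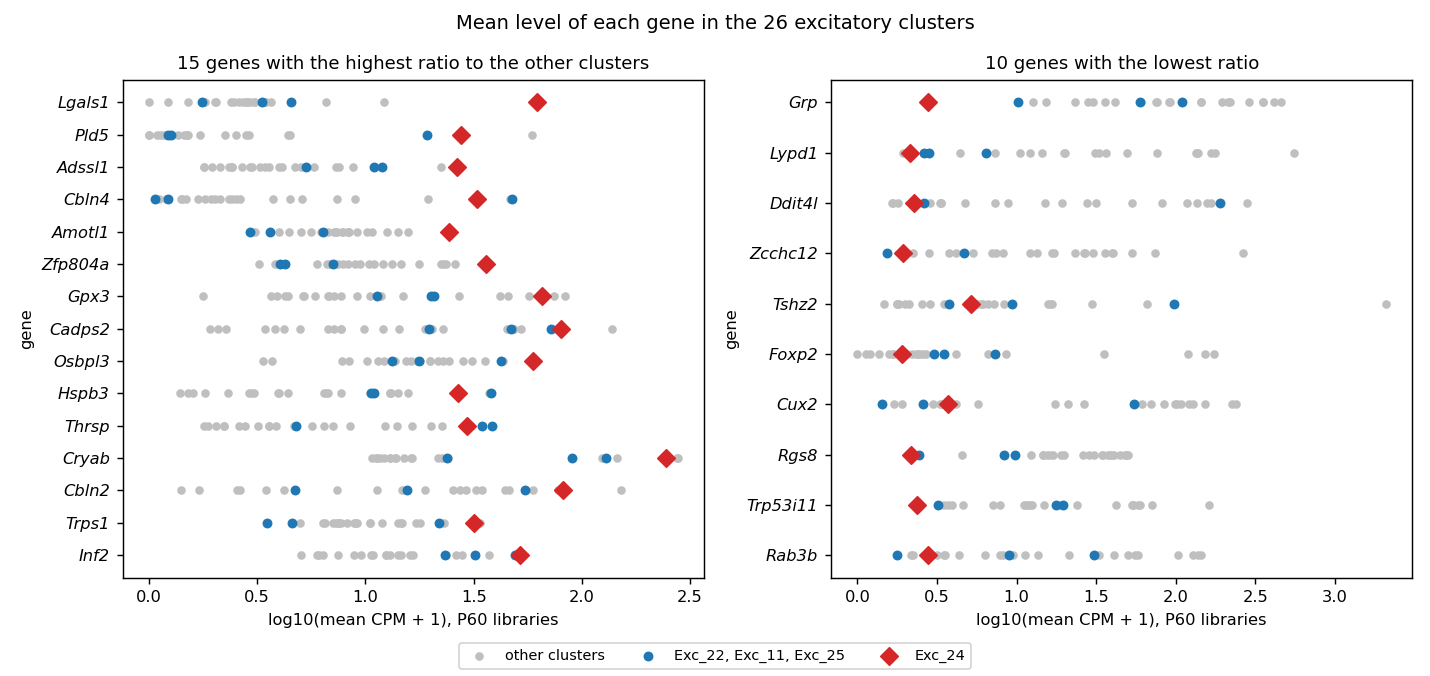
Mean level of each gene, as log10 of CPM + 1 over P60 libraries (horizontal axis), in Exc_24 (red diamonds), in the 3 most similar clusters (blue) and in the other 22 clusters (grey), for the 15 genes with the highest ratio (left) and the 10 with the lowest (right). Lgals1 at 60.9 CPM stands apart from all clusters, and Grp at 1.77 CPM lies below all of them.

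At the other end, 117 of 6021 genes at 20 CPM or more in the other clusters were below their mean by over 2-fold in Exc_24. Grp, which encodes gastrin-releasing peptide, stood at 1.77 ± 2.45 CPM against 141, and Exc_24 was the lowest of all 26 clusters. Only 15 of 470 P60 cells (3.19%) had a UMI of Grp, against 42.0% of the other excitatory neurons and 1.46% of oligodendrocytes. Ddit4l, an inhibitor of mTOR signalling, was at 1.25 CPM against 51.9, Rgs8, a regulator of G protein signalling, at 1.17 against 25.3, and Rab3b, a vesicle protein, at 1.77 against 34.7. Zcchc12 was at 0.937 against 27.9 and Trp53i11 at 1.36 against 28.7. Some similar clusters were as low, with Zcchc12 at 0.906 in Exc_22 and 0.542 in Exc_25, and Ddit4l at 1.21 and 1.63, and the mean of Zcchc12 includes Exc_21 at 262. Lypd1, Tshz2, Foxp2 and Cux2, named above as layer markers, complete the 10 lowest ratios. Of the 10, Exc_24 was the lowest cluster for Grp, Rgs8 and Trp53i11 alone. For Rgs8 the similar Exc_22 was about as low at 1.44 CPM, and for Trp53i11 the similar Exc_11 at 2.19. The P60 Exc_24 cells held 7 and 11 UMIs of these 2 genes, so their ranks rest on few counts.

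Of all 12561 genes at 1 CPM or more, 512 were below the other clusters by over 2-fold and 117 above, and the lists of peptides, receptors, channels and adhesion molecules are given beside these. Of 13 detected neuropeptide genes, 7 were low by over 2-fold, with a list median of -1.14. Cck, the cholecystokinin gene, stood at 1797 ± 1685 CPM against 1124, the highest of the 26 clusters. The 15-day cocaine libraries were at 5342 and 4680 CPM and the other 9 at 579 to 2387, and over the saline libraries alone the mean was 1049 against 693. Adcyap1 and Npw were the only other peptide genes above the other clusters, Adcyap1 at 33.4 against 31.9 CPM. Npy stood at 10.6 CPM against 48.1, and Pdyn, Nts and Trh had no UMI in the P60 libraries used. Of 18 monoamine, acetylcholine, opioid and cannabinoid receptor genes 2 were above and 3 below by over 2-fold, with a list median of 0.0. Chrm2, a muscarinic receptor, was at 30.3 ± 9.45 CPM against 11.3 and Htr2a, a serotonin receptor, at 7.84 ± 4.88 against 2.71, the highest cluster, whereas Htr2c was at 0.587 against 12.9. Of 42 potassium channel genes 2 were above and 2 below by over 2-fold, and Kcnc2 stood at 24.5 ± 7.49 CPM against 10.6. Of 38 adhesion genes 10 were low, with Cdh13 at 12.9 CPM against 95.8 and Pcdh19 at 3.74 against 47.4, while Cdh12 was at 48.0 ± 11.4 against 19.9. Of 31 guidance genes 7 were low by over 2-fold and 1 was high, with a list median of -0.30. Efnb3, an ephrin ligand, stood at 5.50 CPM against 33.6. Unc5c, a netrin receptor, stood at 28.7 ± 8.03 CPM against 14.5, the highest cluster, and Sema3c stood at 14.3 ± 8.93 against 5.92.

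By the 2000 genes that varied most between clusters, the profile of Exc_24 was most like those of Exc_22 (Pearson r = 0.886), Exc_11 (0.884) and Exc_25 (0.872), which hold 547, 444 and 1384 cells. These correlations are across genes of clusters from shared libraries and describe likeness only. When each cell was set against the mean profiles of the 26 clusters, 400 of 470 P60 cells (85.1%) were closest to Exc_24 itself, 28 (5.96%) to Exc_22 and 15 (3.19%) to Exc_14. Conversely, 140 of 13973 P60 cells of other clusters (1.00%) were closest to Exc_24. At P21, 114 of 179 cells (63.7%) were closest to the adult Exc_24 profile, with 69.0%, 48.6% and 63.6% in the 3 libraries, and 21 (11.7%) were closest to Exc_13. The adult range over libraries was 69.2% to 96.3%, and all 3 P21 libraries lay below it. The adult profile was built from the adult cells themselves, so the values of both ages are a description.

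The share of Exc_24 among excitatory neurons did not differ detectably between cocaine and saline. In the maintenance phase it was 4.74% and 2.74% with cocaine and 2.18% and 2.21% with saline. At 48 h it was 1.68% and 2.52% with cocaine and 4.23% and 2.76% with saline, and at 15 days 2.86% and 4.57% with cocaine and 3.61% and 2.94% with saline. Cocaine was above saline in the first time point, below it in the second and on both sides of it in the third. The means were 3.18% ± 1.21 and 2.99% ± 0.806 (SD, n = 6 libraries each), a difference of 0.196 percentage points (two-sided exact permutation test within time points, p = 0.796, 216 regroupings, smallest possible p = 0.00926). The P21 libraries held 4.03%, 2.26% and 2.31%, a mean of 2.87% ± 1.01 (n = 3), which lay 0.122 points under P60 saline (exact permutation test, p = 0.821, 84 splits).

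**Figure D3:**
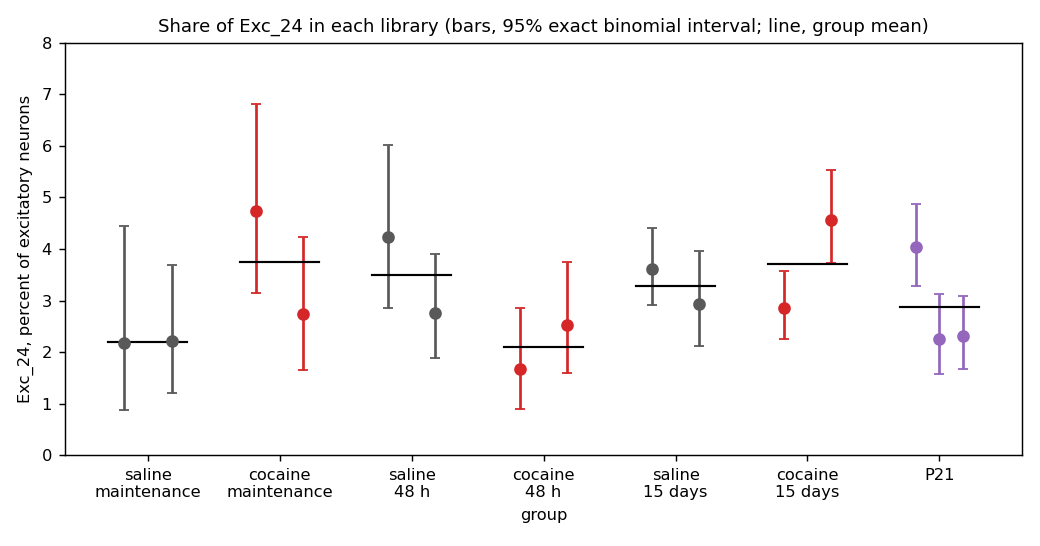
Exc_24 cells as a percent of the excitatory neurons of each library (vertical axis), 1 point per library with its exact 95% binomial interval, grouped by treatment, time and age (horizontal axis), with a line at each group's mean. The libraries run from 1.68% to 4.74%, and the intervals of most of them overlap.

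The Exc_24 cells of the juvenile libraries were shallower. The median per library was 8616 to 14343 UMIs at P21 and 14694 to 18101 in P60 saline, without overlap, and the means differed by 4686 UMIs (16221 ± 1302, n = 6, against 11535 ± 2865, n = 3; exact permutation test, p = 0.0119, the smallest this design allows). Genes per cell differed by 503 (4237 ± 200 against 3734 ± 434; exact permutation p = 0.0238). Without P21 replicate 3 this difference was 263 (exact permutation p = 0.143), and p was 0.0714 without P21 replicate 2 and 0.0536 without saline 15-day replicate 1. The mitochondrial share was 2.45% ± 0.251 at P60 and 4.36% ± 0.872 at P21 (exact permutation p = 0.0119). The other excitatory neurons of the same libraries were also shallower, with medians of 7313 to 11368 UMIs at P21 and 11838 to 14778.5 in P60 saline. Their mitochondrial share was 3.06% to 3.67% at P21 and 2.16% to 2.51% in P60 saline. The part of depth and mitochondrial share in the gene differences below was not tested apart from the thinned counts given beside them. Between cocaine and saline the differences were 622 UMIs (exact permutation p = 0.694) and 153 genes (p = 0.398).

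Between P21 and P60 a large part of the transcriptome of Exc_24 changed. In 5 P60 saline libraries against 3 P21 libraries, edgeR called 1394 of 6221 genes at a Benjamini-Hochberg adjusted p under 0.05 and a change over 1.5-fold. Of these, 553 (8.89% of genes tested) were higher at P60 and 841 (13.5%) were lower. The median log2 change over all genes was -0.02. In the other excitatory neurons of the same libraries, where 2543 of 13248 genes were called, 598 of the 1394 were called the same way. Of the 1394, 15 had the opposite sign there. Neither count has its share over all 6221 genes beside it, so nothing is read from them. P21 replicates 2 and 3 differed least (mean chi-square per gene 1.68, against 4.08 and 3.46 for their pairs with replicate 1, and 1.56 to 2.29 for P60 pairs), and with them summed as 1 library, 1437 genes were called, 1214 of them among the 1394. The count stood at 970 with DESeq2, 206 with Bonferroni adjustment, 840 with the 2 saline libraries at 15 days as the only adults, and 1355 without the 6 cells of another class. It was 273 of 1573 genes tested when each cell was thinned to 2000 UMIs, 1396 without P21 replicate 2, which carried the most oligodendrocyte transcripts, and 1302 in the cells closest to the adult Exc_24 profile, of which 1066 were among the 1394.

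Ass1, argininosuccinate synthase of arginine synthesis, had the largest rise among the genes called in this fit. It was at 56.5, 40.2, 52.2, 59.4 and 69.5 CPM in the P60 saline libraries and at 4.54, 0 and 0 in the P21 libraries. The groups did not overlap, and the log2 change was 4.29 (SE 0.42, adjusted p = 4.89e-08). Asl, which encodes argininosuccinate lyase and acts in the next step, stood at 36.4 ± 10.1 CPM against 9.68 ± 3.01, a log2 change of 1.94 (adjusted p = 1.86e-04). In the other excitatory neurons of the same libraries Ass1 stood at 85.3 CPM at P60 and 11.1 at P21.

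The other named genes higher at P60 had smaller changes. Tnnt2, a troponin, stood at 68.2 ± 16.3 CPM against 10.1 ± 4.83 (log2 change 3.18, adjusted p = 1.39e-07) and Gstt1, a glutathione transferase, at 53.0 ± 10.7 against 7.22 ± 3.57 (2.59). In the other excitatory neurons Tnnt2 stood at 70.6 CPM at P60 and 14.2 at P21, and Gstt1 at 43.0 and 9.44. Pir, Aldoc (a glycolytic aldolase), Ptgds (a prostaglandin D synthase), Plcxd3 and Prr13 rose by log2 changes of 1.85 to 2.16. Fst, one of the genes raised in Exc_24, stood at 19.8 ± 6.08 CPM against 4.23 ± 3.17 (log2 change 2.65, adjusted p = 2.29e-04), and at 3.83 and 1.77 CPM in the other excitatory neurons.

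The genes lower at P60 included proteins of growing neurons. Marcksl1, a membrane and actin regulator of growth cones, was at 162, 273 and 263 CPM at P21 and at 0 to 18.8 in the P60 saline libraries (log2 change -4.59, SE 0.52, adjusted p = 6.11e-04). Nnat, neuronatin, was at 49.1, 97.2 and 88.6 CPM at P21 and at 0 to 9.42 at P60 (-3.88, adjusted p = 4.83e-08). Cd24a, a surface glycoprotein of young neurons, stood at 115 ± 63.8 CPM at P21 and 11.2 ± 7.11 at P60 (-3.45), and at 79.7 and 8.59 in the other excitatory neurons. Dmkn, dermokine, had 66 UMIs at P21 and 1 in P60 saline, a ratio of 97.5 with a counting interval of 16.9 to 3908, and its fitted fold is no bound. The P60 cocaine libraries held 0 to 5.53 CPM of Dmkn.

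Bcl11b, the ET factor, was present in the juvenile cells that carry the Exc_24 name. It was at 34.0, 39.4 and 27.9 CPM at P21 and at 4.71, 5.03, 1.94, 4.63 and 1.48 in the P60 saline libraries, without overlap (log2 change -3.14, SE 0.40, adjusted p = 3.03e-06). In P21 cells closest to the adult Exc_24 profile its mean was 18.9 CPM, against 33.8 in all P21 cells of the cluster. Those cells were chosen by likeness to a profile with little Bcl11b, which can itself lower Bcl11b in them. The remaining named genes lower at P60 were Gm1673, Hist1h2bc, Tmem93, Ier2 and Junb, with log2 changes of -3.57 to -2.58. Gm1673, at 329, 34.1 and 58.2 CPM at P21, fell by 1.69 in place of 3.57 on the log2 scale without P21 replicate 1, and it was no longer called without any 1 of 4 of the saline libraries (adjusted p = 0.0664 to 0.0892). The 15-day cocaine libraries, which are not in this test, held 76.5 and 65.7 CPM of Gm1673, above P21 replicates 2 and 3, and 198 and 143 CPM of Tmem93, which stood at 288, 213 and 162 at P21.

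**Figure D4:**
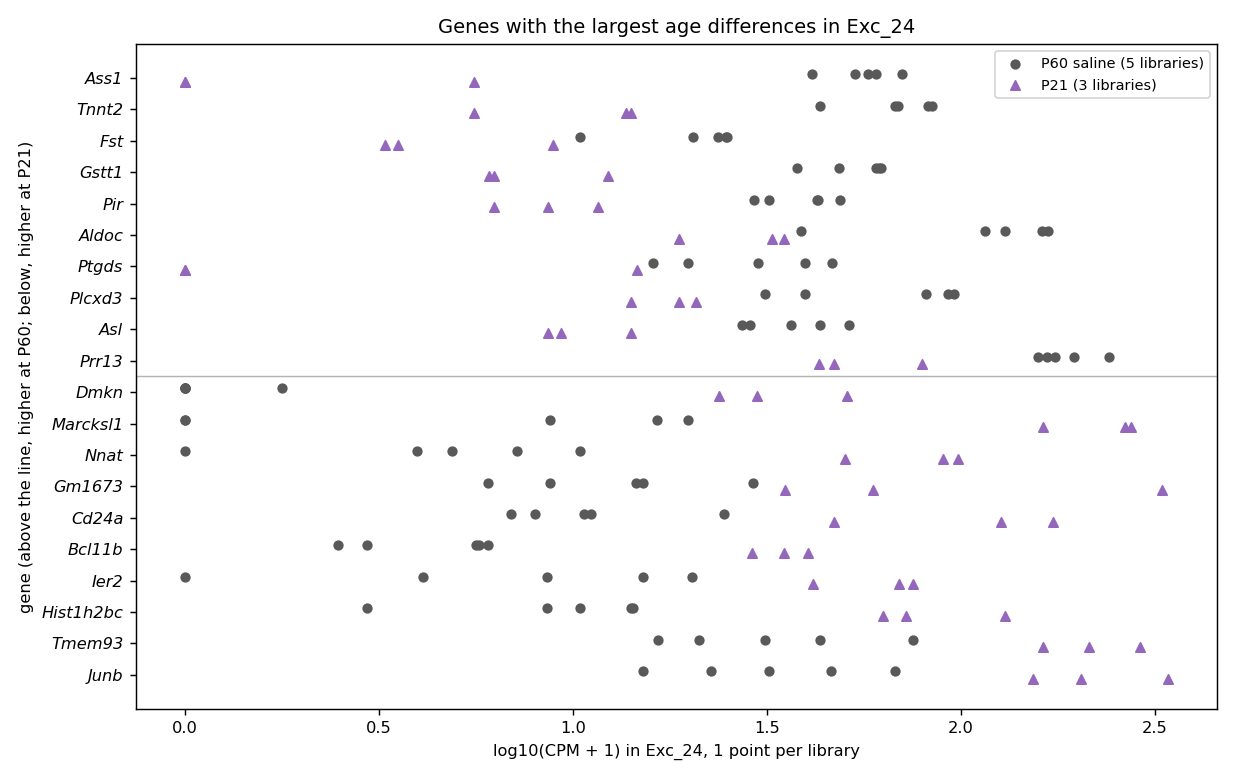
Level in Exc_24 as log10 of CPM + 1 (horizontal axis) in each of 5 P60 saline libraries (grey circles) and 3 P21 libraries (purple triangles), for 20 genes (rows), the 10 most raised and the 10 most lowered at P60 among those called with groups apart. Ass1 lies at 40.2 to 69.5 CPM at P60 and at 0 to 4.54 at P21, and Bcl11b at 1.48 to 5.03 and 27.9 to 39.4.

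Immediate early genes, which neurons switch on within minutes of activity or stress, were lower at P60 in 12 of 17 tested and higher in 0, with a list median of -1.38. Over all genes tested 13.5% were lower and 8.89% higher, with a median of -0.02. Junb stood at 203, 341 and 152 CPM at P21 and at 14.1 to 66.6 at P60 (log2 change -2.58, adjusted p = 0.00281). Fos, the most used marker of recent activity, was at 250.0 ± 104 CPM at P21 and 76.8 ± 38.2 at P60 (-1.46, adjusted p = 0.0203). Egr1 stood at 460 ± 119 against 242 ± 55.8 CPM (-0.80) and Nptx2, a secreted pentraxin of excitatory synapses, at 47.8 ± 8.17 against 10.1 ± 5.70 (-1.96, adjusted p = 2.54e-05). In the other excitatory neurons of the same libraries Fos stood at 222 CPM at P21 and 94.4 at P60, Junb at 232 and 51.2, and Egr1 at 263 and 173. Microglial markers summed to 60.4 to 101 CPM in the P21 Exc_24 cells and 5.81 to 29.6 in P60 saline, and their part in these differences was not tested.

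Of 25 tested genes of DNA methylation and chromatin, 9 were lower at P60 and 2 higher, with a median of -0.41, against 13.5% lower, 8.89% higher and a median of -0.02 over all genes. Dnmt3a, the enzyme that writes new DNA methylation in maturing neurons, was at 116, 194 and 111 CPM at P21 and at 30.2 to 58.1 at P60 (log2 change -1.47, SE 0.20, adjusted p = 1.07e-05). Chd3, a remodeller of the NuRD complex, stood at 147 ± 29.5 CPM against 47.7 ± 12.6 (-1.49), and Tet3, which oxidises methylcytosine, at 65.3 ± 12.7 against 33.4 ± 6.88 (-0.80, adjusted p = 0.00849). Prmt1, an arginine methyltransferase, went the other way, with 97.6 ± 30.0 at P21 and 227 ± 19.3 at P60 (1.18).

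Of 16 tested axon growth genes 5 were lower at P60 and 1, Stmn1, was higher, and of 12 guidance genes 5 were lower and 0 higher, against 13.5% lower and 8.89% higher over all genes. Nrp1, a semaphorin receptor, stood at 54.4 ± 16.5 CPM at P21 and 19.6 ± 4.71 at P60 (log2 change -1.35, adjusted p = 3.04e-04), and Plxna4, its partner, at 74.2 ± 14.5 and 40.3 ± 13.3 (-0.71, adjusted p = 0.0222). The medians of the growth and guidance lists were -0.37 and -0.47, against -0.02 over all genes.

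The other lists are given beside the same shares over all genes tested, 8.89% higher and 13.5% lower. Of 76 nuclear genes of oxidative phosphorylation 5 were higher and 2 lower at P60, with a median of 0.27. Of 13 glutamate receptor genes 3 were lower (Grin1, Grik3 and Grm5), of 12 GABA receptor genes 3 were lower and 1 higher, and of 26 potassium channel genes 3 were lower and 2 higher. Of 22 adhesion genes 5 were lower and 2 higher, of 15 cholesterol synthesis genes 2 each, of 12 calcium sensor genes 1 each and of 19 genes of the adult neuron list 2 each. Among the excitatory neuron markers Snap25 rose (6478 ± 673 CPM at P60 and 3932 ± 92.2 at P21, log2 change 0.78, adjusted p = 2.38e-05). Slc17a7 and Tbr1 fell, with log2 changes of -0.85 and -1.06.

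Of the 15 leading genes, 14 were tested between the ages. These genes were chosen for their level at P60, in part in the same saline libraries, so the values are a description. Lgals1 was at 9.83, 2.63 and 27.9 CPM at P21 and at 9.42 to 82.9 in P60 saline, with overlap (log2 change 2.11, adjusted p = 0.0203; 0.0605 with DESeq2 and 0.101 without P21 replicate 1). At P21, 22 of 179 cells (12.3%) had a UMI of Lgals1, and 2.23% after thinning, against 29.6% and 10.2% at P60. Gpx3, Thrsp, Amotl1 and Trps1 were also higher at P60, with log2 changes of 0.84 to 2.12, and Cadps2 and Cbln2 were lower, by -0.78 and -0.93. Pld5, Cbln4, Zfp804a, Osbpl3, Hspb3, Cryab and Inf2 were not called (Inf2 for a change under 1.5-fold), with log2 changes of -0.56 to 0.50, and Cbln4 stood at 33.3 ± 16.5 and 32.1 ± 10.7 CPM. In the P21 cells the mean ratio to the other clusters was 4.55 for Lgals1, 8.71 for Cbln4 and 5.35 for Pld5.

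Whether these age changes differed from those of the other excitatory neurons was tested within libraries. The others entered as 1 sum per library over 25 clusters, whose shares were not held equal between the ages. The part of these shares in the differences was not tested. Of 12704 genes, edgeR called 96 with each library as a block, 35 with a change higher in Exc_24 (0.276%) and 61 with one lower (0.480%). The number was 28 with limma-voom, 69 with the Exc_24 cells closest to the adult profile, 163 without P21 replicate 1, and 36 when only the 3 most similar clusters served as the comparison, of which 17 were among the 96. Ass1 and Fst, both higher at P60 in Exc_24, did not pass this test (difference 1.47, adjusted p = 0.145, and 1.60, adjusted p = 0.254).

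Plcxd3, a phospholipase C-like gene, had the firmest difference upward. It was at 19.7, 13.1 and 17.7 CPM at P21 and at 80.1, 30.2, 38.7, 94.9 and 91.7 in P60 saline, while the other excitatory neurons stood at 36.0 CPM at P21 and 40.4 at P60 (difference of log2 changes 1.84, SE 0.25, adjusted p = 7.59e-10). It was still called with limma-voom, with the 3 similar clusters and without any single library. Tle4, a corepressor of CT neurons, stood at 14.4 CPM at P21 and 18.0 at P60 in Exc_24 and at 64.5 and 28.7 in the others (difference 1.59, adjusted p = 9.32e-04, with a difference of 1.58 and adjusted p = 0.0507 with limma-voom, and of 1.36 and 0.142 against the 3 similar clusters). Adam33, a metalloprotease, had 1 UMI at P21 and 54 in P60 saline, a ratio of 36.6 with a counting interval of 6.29 to 1471, whereas the others stood at 5.91 and 16.7 CPM. Ddah1 had a difference of 1.24 because it fell less in Exc_24, from 26.8 CPM at P21 to 13.8 at P60, than in the others, from 49.8 to 11.1. Mmp11 had 0 UMIs at P21 and 15 in P60 saline, at least 3.39-fold higher against a floor of 3 counts per group.

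An opioid peptide and an opioid receptor gene, both also members of the layer 6 IT list, had the opposite difference. Of 7 tested genes of that list 3 (Penk, Oprk1 and Cdh9) were called lower and 0 higher. The list median was -1.51 against 0.01 over all genes, of which 0.480% were called lower. Oprk1 was the only call among 19 tested monoamine, acetylcholine, opioid and cannabinoid receptor genes. Penk was at 66.5, 44.7 and 20.3 CPM at P21 and at 0, 0, 0, 3.09 and 1.48 in P60 saline, while the other excitatory neurons held 40.4 and 24.0 CPM (difference -4.04, SE 0.45, adjusted p = 6.33e-15). The P60 cocaine libraries, which are not in this test, held Penk at 24.9 and 7.19 CPM (maintenance), 15.9 and 0 (48 h) and 0.969 and 0.722 (15 days), so the highest of them lay above P21 replicate 3. Oprk1, the kappa opioid receptor, stood at 12.7 ± 6.70 CPM at P21 and 1.87 ± 1.77 at P60 in Exc_24 (difference -2.28, adjusted p = 0.0142). Its call was lost without P21 replicate 1 (-1.20, adjusted p = 0.524), without saline 48 h replicate 1 (0.0586) and with limma-voom (0.188). The calls of Penk and Oprk1 were lost against the 3 similar clusters, with adjusted p = 0.383 for Penk and 0.990 for Oprk1. In the P21 cells closest to the adult profile Penk averaged 16.2 CPM, against 43.8 in all P21 cells of the cluster, and its call was lost there too (difference -2.38, adjusted p = 0.0673). Those cells were chosen by likeness to a profile with little Penk, which can itself lower Penk in them. The difference of Oprk1 turned positive under both alternatives, at 0.26 and 7.71, without a call.

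Some other list genes were also called. Of 37 adhesion genes 3 were called with a lower change in Exc_24 and 1 with a higher one, against 0.480% and 0.276% of all genes. Bcl11b (difference -2.12, adjusted p = 1.06e-04, with -1.78 and adjusted p = 0.0715 against the 3 similar clusters and -1.44 and 0.236 in the cells closest to the adult profile), Grp (-2.90, adjusted p = 0.00293), Cdh9 (-1.82), Cdh4 (-1.68), Cdh13 (-1.42) and Efnb3 (-1.79) had a lower change in Exc_24 than in the others. For Bcl11b, the choice of the closest cells can itself lower its level at P21. Grp was at 5.29, 23.6 and 12.7 CPM at P21 and at 0 to 2.32 in P60 saline, without overlap, and its call held with limma-voom and against the 3 similar clusters. However, Grp was named for its low level at P60, in part in these saline libraries, so its values here are a description. Nptx2 (-1.51), Marcksl1 (-1.77), Nnat (-1.72), Nefm (-0.87), Hpcal4 (-0.77) and Necab1 (-0.77) were called in this direction as well. Aldoc (1.21), Npy (1.26), Kcnip3 (0.69), Pcp4 (0.68) and Pcdh9 (0.64) were called in the other. Of the low-count genes, Igfbp2 had 21 UMIs at P21 and 1 in P60 saline, Egln3 had 20 and 3, and St3gal6 had 18 and 0, the last at least 8.86-fold lower in P60 saline. The P60 cocaine libraries held up to 3.60 CPM of Igfbp2, 6.40 of Egln3 and 2.13 of St3gal6. Saline maintenance replicate 1, left out of the test, held 18.1 CPM of Egln3, against 8.32, 15.8 and 7.60 at P21. Lgals1 had a difference of 1.98 (adjusted p = 0.00433), but 0.293 with limma-voom, 0.0890 without saline 48 h replicate 1 and 0.112 without P21 replicate 1, and the gene was chosen for its level at P60.

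Cocaine self-administration was compared with saline at each time point and over all of them. Over all time points edgeR called 0 of 7391 genes in Exc_24 (0%), with 496 at an unadjusted p under 0.05, and DESeq2 called 0. The count rose to 19 without saline 15-day replicate 2. At 48 h both tools called 0 genes (0%), with 298 at an unadjusted p under 0.05 by edgeR. At maintenance both also called 0 (0%), with 452 at an unadjusted p under 0.05. There only 1 saline library had enough cells, and its spread was taken to be that of the other groups.

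At 15 days of withdrawal edgeR called 87 genes higher with cocaine (1.18%) and 0 lower (0%). H2afx, a histone variant of DNA damage signalling, was at 34.9 and 26.7 CPM with cocaine and at 3.09 and 5.92 with saline (log2 change 2.87, SE 0.48, adjusted p = 4.33e-04). Zfp428, a zinc finger gene, was at 111 and 104 CPM with cocaine and at 21.6 and 45.8 with saline (log2 change 1.83, SE 0.25, adjusted p = 3.74e-05). For both genes the 2 cocaine libraries stood above the 2 saline libraries, as in all 87 called genes and in 1228 of all 7391 genes tested. Snf8, of the ESCRT machinery for membrane sorting, stood at 150.0 and 154 CPM against 28.6 and 78.4, and Dut, which clears dUTP, at 63.0 and 49.1 against 13.1 and 28.1. Gm1673, Pigx, Ccdc85b, Ap4s1, Sdf2l1 and Meis3 completed the 10 largest rises, with log2 changes of 1.57 to 2.24.

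The called genes of the lists are given beside the 1.18% called over all genes, and nothing is read from 1 call in a list. Gabbr1, a subunit of the GABA-B receptor, was at 569 and 562 CPM with cocaine and at 275 and 361 with saline (log2 change 0.88, adjusted p = 4.33e-04), the only one of 12 GABA receptor genes called. Nrgn, neurogranin, which binds calmodulin at synapses, was at 2909 and 2751 CPM against 1211 and 1909 (0.89). Yeats4, Ier5 and Uqcrfs1 were each the single call of the chromatin (26 tested), immediate early (17) and oxidative phosphorylation (76) lists. Adssl1, a leading gene of Exc_24, stood at 54.2 and 54.1 CPM against 14.7 and 37.0 (1.26, adjusted p = 0.0331). Cck was at 5342 and 4680 CPM against 676 and 2387 but was not called (1.75, adjusted p = 0.73), nor was Lgals1 (0.34).

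The other excitatory neurons of the same 4 libraries showed like values. H2afx stood there at 36.2 and 29.2 CPM with cocaine and 7.82 and 17.6 with saline, and Snf8 at 153 and 140 against 34.7 and 80.8. The median log2 difference of the 87 genes was 0.98 in Exc_24 and 0.82 in the other excitatory neurons, against -0.02 and -0.05 over all genes, and whether these differ was not tested. The genes were chosen by their values in these 4 libraries, so these medians are a description. Saline 15-day replicate 1 had the lowest level of the 4 libraries in 85 of the 87 genes. Without it 0 of 7161 genes were called by edgeR (262 at an unadjusted p under 0.05), and without saline 15-day replicate 2 the count was 171. It was 22 and 42 without cocaine 15-day replicates 1 and 2, and DESeq2 called 4 genes (Gabbr1, Nrgn, Mrfap1 and Atxn7l3b, named after their values were seen). In the libraries of the other time points, 62 of the 87 (71.3%) were higher with cocaine at 48 h, against 49.9% of all genes tested, and 52 (59.8%) at maintenance, against 52.2%.

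**Figure D5:**
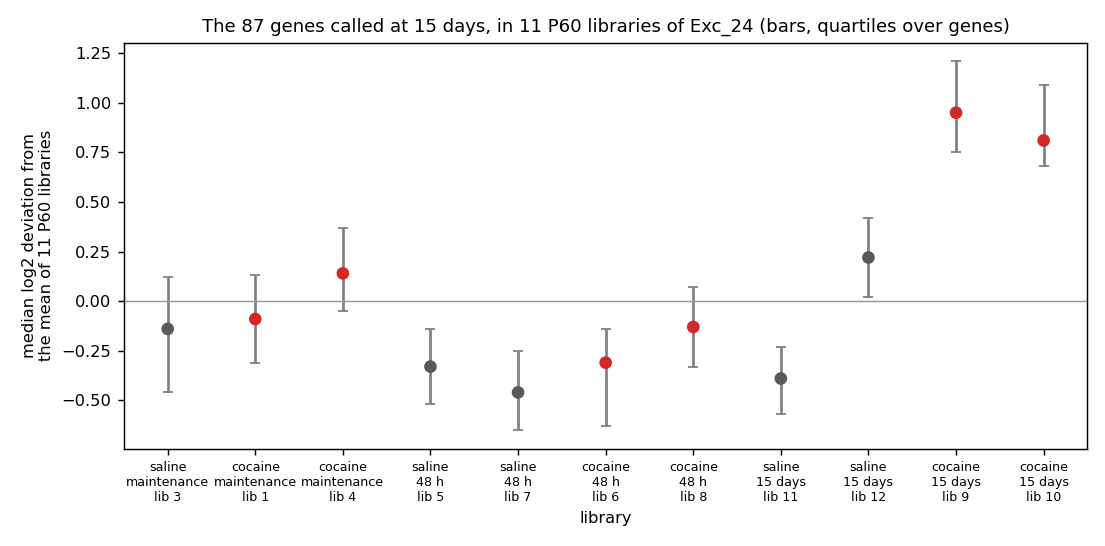
Median log2 deviation of the 87 genes called at 15 days from their mean over 11 P60 libraries (vertical axis), 1 point per library with bars to the quartiles, for cocaine (red) and saline (grey) libraries by time point. The cocaine libraries at 15 days stand at 0.95 and 0.81, the saline libraries at 15 days at -0.39 and 0.22, and the other libraries between -0.46 and 0.14. The genes were called on the libraries at 15 days.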

How the data were processed

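Single-cell RNA-seq counts from 15 libraries of mouse prefrontal cortex were used. The deposited matrix holds UMI counts per gene and cell, which the authors made with Cell Ranger on the mm9 build and filtered with Seurat 2.1.0 (per the labels). The deposited table of cells gives each cell's library, class, cluster and mitochondrial and ribosomal fraction as the authors computed them. Replicates are libraries, grouped by their labels.

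Counts of Exc_24 cells were summed per library. Genes of the mitochondrial genome (13) and of ribosomal proteins (144) were dropped, which kept 25988 of 26145 genes, and libraries with under 10 cells were dropped from gene levels and tests. Levels are CPM, and log2 ratios of levels use a pseudocount of 1. Gene tests used edgeR 4.0.16 quasi-likelihood fits (R 4.3.3), with TMM scaling, Benjamini-Hochberg adjusted p under 0.05 and a change over 1.5-fold. The age difference was an interaction term with each library as a block. DESeq2 1.42.0 and limma 3.58.1 were alternatives. Shares and depths were compared with exact permutation tests over libraries (scipy 1.17.1). The fits were tested on simulated data.

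Named genes were the 15 highest and 10 lowest ratios to the other clusters at 20 CPM or more, the 5 highest over the next cluster, and for each test the 10 largest rises and falls among called genes with groups apart (5 for the age difference), plus members of the marker lists. The members and lists were chosen with earlier results of these data known. Alternatives added after seeing the data were the thinned counts, the cells closest to the adult profile, the cells without another class, the 15-day saline libraries alone and the sum of P21 replicates 2 and 3. Results on some genes are not reported here.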

Additional observations from a re-analysis of the deposited data

Results flagged for a closer look

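Of 114 groups of 4 to 10 libraries tested for a library far from the others, 7 (6.14%) held one, where chance gives about 1 in 20. In P60 saline these were Dmkn and Igfbp2, each at 0.772 CPM (1 UMI) in 15-day replicate 1, and Cd24a at 23.5 CPM in maintenance replicate 2. In P60 cocaine they were Cbln2 at 163 CPM and Ptgds at 58.1 CPM in maintenance replicate 1, Igfbp2 at 3.60 CPM in maintenance replicate 2, and St3gal6 at 2.13 CPM in 48 h replicate 2. The values of Dmkn, Igfbp2 and St3gal6 rest on so few UMIs that the rate of 1 in 20 need not hold for them.

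The change from P21 to P60 in Exc_24 differed from that of the other excitatory neurons, by the interaction test in edgeR, in these genes named above. The log2 difference was positive for Mmp11 (8.67), Adam33 (3.50), Lgals1 (1.98), Plcxd3 (1.84), Tle4 (1.59), Npy (1.26), Ddah1 (1.24), Aldoc (1.21), Kcnip3 (0.69), Pcp4 (0.68) and Pcdh9 (0.64). It was negative for St3gal6 (-7.92), Dmkn (-4.76), Penk (-4.04), Igfbp2 (-3.79), Egln3 (-3.05), Grp (-2.90), Oprk1 (-2.28), Bcl11b (-2.12), Cdh9 (-1.82), Efnb3 (-1.79), Marcksl1 (-1.77), Nnat (-1.72), Cdh4 (-1.68), Nptx2 (-1.51), Cdh13 (-1.42), Nefm (-0.87), Hpcal4 (-0.77) and Necab1 (-0.77). The values of Mmp11, Adam33, St3gal6, Dmkn, Igfbp2 and Egln3 rest on 0 to 3 UMIs in either the P21 or the P60 saline libraries and are no bounds. Against the 3 similar clusters Tle4, Penk, Oprk1 and Bcl11b were not called, and 17 of the 96 main calls were made again. Lgals1 was not called with limma-voom, and Lgals1 and Grp were named for their level at P60.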

How the results depend on the processing

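No call was made for the share of Exc_24 under any alternative. Its age difference turned to -0.00659 points as a share of all cells and to -0.170 with P21 replicates 2 and 3 summed. Leaving out 1 library gave -0.138 to 0.529 points for cocaine and -0.182 to 0.704 for age. It gave -378 to 1623 UMIs and 45.4 to 260 genes per cell for cocaine, and 3226 to 6090 UMIs and 263 to 685 genes for age, where 3 of 9 settings lost the call on genes.

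The 1394 age calls became 206 with Bonferroni adjustment, 840 with the 15-day saline libraries alone and 273 with thinned cells (1573 genes tested), and 1141 to 1406 without 1 library. The 96 calls of the age difference became 28 with limma-voom, 146 with no fold cutoff and 36 against the 3 most similar clusters, and 70 to 163 without 1 library. Oprk1 turned from -2.28 to 0.26 against the similar clusters and to 7.71 in the cells closest to the adult profile. For cocaine over all times the count of 0 became 1 with a minimum of 20 cells (Rexo1) and 3 with treatment alone (Rexo1, B4galnt1 and St8sia5), all named after their values were seen, and 0 to 19 without 1 library. The 87 calls at 15 days became 4 with DESeq2 and 52 with those libraries alone, and 0 to 171 without 1 library. The count was 0 to 1 at 48 h (Gm10076, without saline replicate 2) and 0 at maintenance. The cause of these shifts was not tested, except that fewer genes or libraries entered where stated.

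Of single-gene values under alternatives, 1691 of 2007 for age, 306 of 433 for the age difference and 78 of 110 for 15 days stayed past the threshold. These counts include the setting with no fold cutoff, which can lose no call. In both age tests a minimum of 20 cells and leaving out saline maintenance replicate 2 are the same fit, counted under each setting. At maintenance, a minimum of 20 cells and leaving out saline replicate 2 could not be fitted, since no saline library was left, and replicate 1 was already out with 7 cells. No paired analysis was possible because the replicate numbers follow accession order and pair no libraries. Depth limits what 7 to 100 cells per library can show of genes with few UMIs.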
